A study of Mus musculus with 8 samples.

Results

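The genes described here are 10 cell surface genes that blood stem cells share with endothelium or with cell junctions, of 47311 genes matched in all: Jam2, Jam3, F11r, Esam, Tek, Tie1, Robo4, Cd34, Eng and Cdh5. They were taken as a list of names, with earlier results of these data known. RNA was sequenced from LSK bone marrow cells (lineage-negative, Sca1-positive and Kit-positive, the gate that holds blood stem cells and multipotent progenitors) of 8 mice. The 4 groups of 2 mice were old Asxl2 KO, young Asxl2 KO, old WT and young WT, where old means over 1 year and young 8 to 12 weeks. Asxl2 encodes a chromatin protein that partners the histone H2A deubiquitinase Bap1. The labels give no further detail of the knockout allele. They place each KO mouse with a WT littermate of the same age and batch, and each group has 1 mouse from each of 2 batches.

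The junctional adhesion molecules are small immunoglobulin proteins that bind each other across cell contacts. Tek (Tie2) and Tie1 are receptor tyrosine kinases, Robo4 is a receptor of the roundabout family, Eng is a co-receptor of the TGF-beta family and Cd34 is a sialomucin. All are known from endothelium, and most are also found on blood stem cells, which arise from hemogenic endothelium in the embryo and later lodge beside sinusoids and stroma in the marrow. Tek with its ligand Angpt1, and Jam3 with its partner Jam2, have been studied in mice as ties between stem cells and that niche.

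Levels are given in TPM, which scales reads for transcript length and depth, and changes as log2 fold changes from edgeR's quasi-likelihood test, with p adjusted over the 25543 genes that passed a filter on low counts. A gene was called changed where that adjusted p was under 0.05. Of the 10 genes, 9 passed the filter and Cdh5 did not.

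As a check of the labels, Asxl2 measured 4.63 to 5.63 TPM in KO libraries and 23.0 to 30.8 TPM in WT libraries. Library totals ran from 45737972 to 80388500 estimated counts. Young WT replicate 1 stood apart, with the fewest genes detected (26237, against up to 36175 elsewhere) and with Kit at 547.2 TPM. Kit ran from 63.4 to 160.7 TPM in KO libraries and from 133.1 to 547.2 TPM in WT libraries. Xist, the RNA of the inactive X chromosome, was at 3.33 and 3.61 TPM in the KO and the WT mouse of litter 1 and at most 0.0612 TPM in every other library. Litter 1 is old and of batch 1, so the comparisons were also run without it. Fewer cells of a type and less RNA per cell cannot be told apart in these bulk libraries.

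The vessel-defining member, Cdh5 (ENSMUSG00000031871, chr8:104101625-104144511, mm10, + strand), was close to absent. It encodes VE-cadherin, the adhesion protein of endothelial junctions. Its estimated counts were 7 and 9 in old KO, 7 and 0 in young KO, 5 and 1 in old WT and 1 and 3 in young WT libraries, at most 0.0659 TPM. The count of 0 in young KO replicate 2 allows up to 0.0154 TPM, the level of 3 counts. Neither genotype stood above the other, and no test was made.

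Other genes that define endothelium were low as well. Of 19 listed endothelial markers, 11 were under 1 TPM in all 8 libraries, among them the VEGF receptor Kdr (at most 0.954 TPM) and the phosphatase Ptprb (at most 0.106 TPM). The list summed to 26.8 to 38.3 TPM in KO libraries and 19.7 to 33.9 TPM in WT libraries, most of it from Cldn5 (12.7 ± 5.31 TPM in KO and 6.18 ± 2.87 TPM in WT, SD, n = 4 each) and Sox18 (9.82 ± 4.39 TPM in KO and 6.93 ± 2.78 TPM in WT, SD, n = 4 each). Cldn5 was called higher in KO (log2 fold change 1.24, adjusted p = 0.0488, edgeR). Clec14a was called lower (-1.23, adjusted p = 0.0351), and the other 14 endothelial markers tested were not called, so 2 of 16 were called where 9.98% of all genes tested were. With age 1 of 16 was called, beside 13.9% of all genes. It was Kdr, which was higher in old mice (1.69, adjusted p = 0.0292).

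Cd34 was by far the most abundant member and the others spread over a wide range. In WT libraries Cd34 averaged 870.1 ± 143.4 TPM, followed by Esam at 121.2 ± 16.6, Eng at 87.0 ± 7.98, F11r at 76.4 ± 10, Tie1 at 49.0 ± 21.4, Robo4 at 20.8 ± 8.98, Jam3 at 12.4 ± 3.45, Tek at 9.61 ± 5.33 and Jam2 at 7.68 ± 3.92 TPM (SD, n = 4). From Eng down to Jam2 each gene's range overlapped that of its neighbour, while Cd34 and Esam stood clear of the genes below them. In KO libraries the low end read differently, with Jam2 at 5.13 ± 3.56, Tek at 3.94 ± 1.16 and Jam3 at 3.18 ± 0.972 TPM (SD, n = 4).

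**Figure D1:**
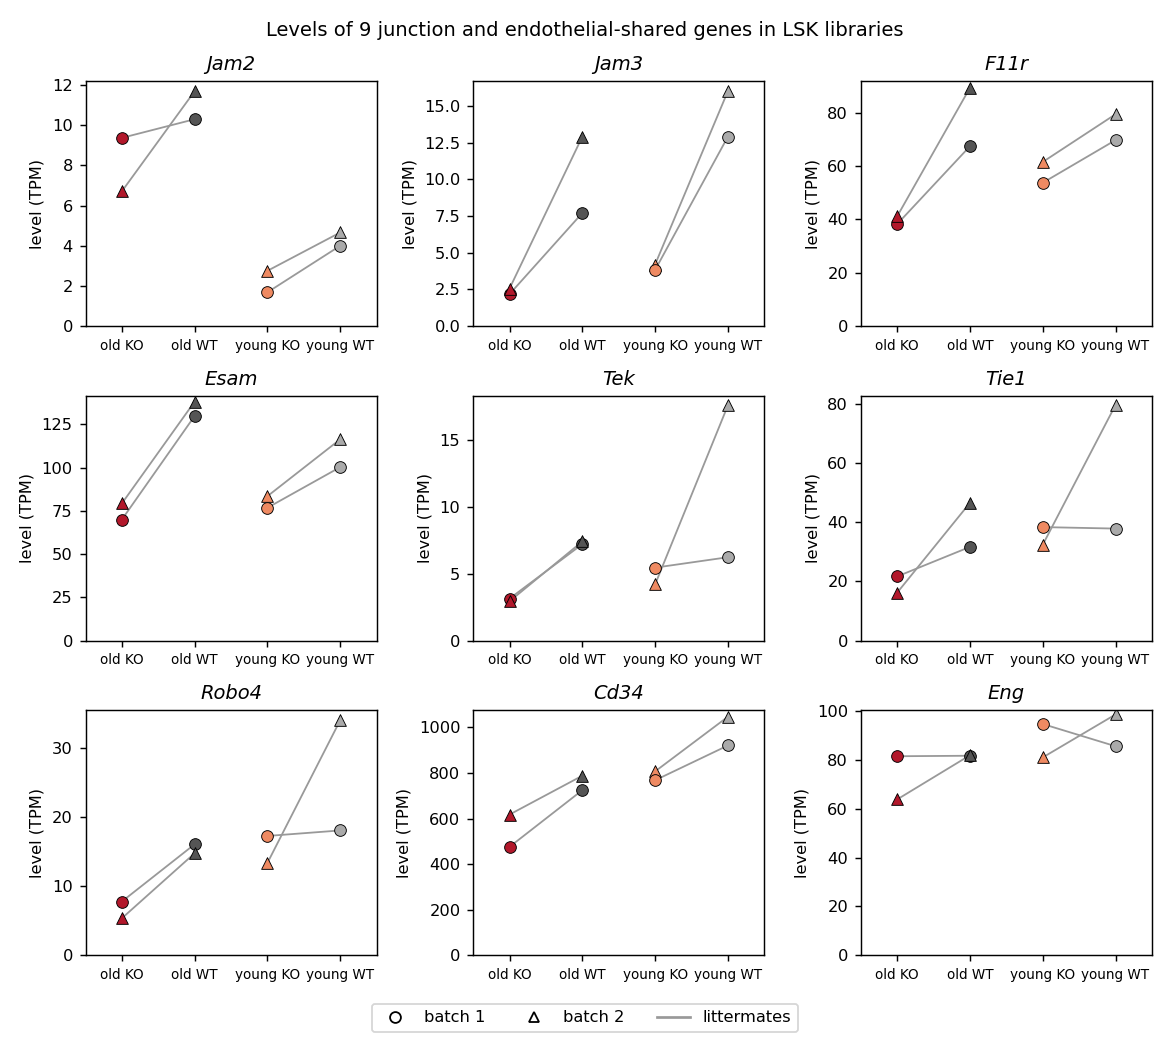
Level in TPM of each of the 9 tested members (vertical axis, starting at 0) in the 8 libraries, by group. Circles are batch 1, triangles batch 2, and grey lines join littermates. Jam3 shows KO mice at 2.17 to 4.19 TPM under every WT mouse (7.70 to 16.0 TPM), Jam2 shows old mice above every young mouse, and the highest points of Tek, Tie1 and Robo4 are the same library, young WT replicate 1.

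KO against WT mice addressed which of these genes depend on Asxl2 at either age. Jam3, the gene of JAM-C, was the member with the largest fold change, with a KO to WT ratio of 0.198 to 0.296 in every litter. Tek and Robo4 were also called lower. All 9 tested members had a negative fold change, and 3 of 9 passed the threshold, where 9.98% of all genes tested passed in either direction and 6.78% passed as lower. The members' median log2 fold change was -0.72, beside 0.10 over all genes tested.

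Jam3 (ENSMUSG00000031990, chr9:27097384-27155421, - strand) encodes an adhesion molecule that is found on mouse blood stem cells. It measured 2.17 and 2.55 TPM in old KO, 4.19 and 3.82 TPM in young KO, 7.70 and 12.9 TPM in old WT, and 16.0 and 12.9 TPM in young WT mice. Every KO library lay below every WT library, as for 8.08% of the genes tested, and each KO mouse thus lay below its own littermate. The KO to WT ratio within a litter was 0.282, 0.198, 0.296 and 0.261 in litters 1 to 4. The fitted log2 fold change was -1.94 (SE 0.24, 95% confidence interval -2.47 to -1.41, adjusted p = 0.00455, edgeR). It stood at rank 28 of 25543 genes by p. With litter as a block it was -1.92 (adjusted p = 0.0133). Within batch 1 it was -1.66 and within batch 2 it was -2.28, each from 1 mouse per group.

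F11r and Esam, the abundant junction genes, kept the groups apart but missed the threshold. F11r (JAM-A, a tight junction protein also found on leukocytes and platelets; ENSMUSG00000038235, chr1:171437535-171464603, + strand) measured 38.2 and 41.1 TPM in old KO, 61.5 and 53.7 TPM in young KO, 67.4 and 89.3 TPM in old WT, and 79.4 and 69.7 TPM in young WT mice. Esam (an endothelial adhesion molecule that also marks mouse blood stem cells; ENSMUSG00000001946, chr9:37528078-37538319, + strand) measured 70.0 and 79.3 TPM in old KO, 83.5 and 76.8 TPM in young KO, 129.9 and 138.2 TPM in old WT, and 116.4 and 100.3 TPM in young WT mice. For both genes all KO libraries were below all WT libraries, as they were for 8.08% of the genes tested. The fitted log2 fold change was -0.49 for F11r (SE 0.15, adjusted p = 0.0633) and -0.42 for Esam (SE 0.13, adjusted p = 0.0654). On the TPM scale, with limma on log2(TPM + 1), the change was -0.66 for F11r (adjusted p = 0.0345) and -0.63 for Esam (adjusted p = 0.0331). The median of all genes was -0.01 on that scale and 0.10 in the count fit. Why the values of F11r and Esam differ between the fits was not tested.

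Jam2 (JAM-B, known as a binding partner of JAM-C; ENSMUSG00000053062, chr16:84774123-84825928, + strand) measured 9.37 and 6.71 TPM in old KO, 2.75 and 1.68 TPM in young KO, 10.3 and 11.7 TPM in old WT, and 4.66 and 4 TPM in young WT mice. KO and WT libraries overlapped as a whole, although each KO mouse was below its littermate. How many of all genes share that littermate order was not counted. The log2 fold change was -0.82 (SE 0.25, adjusted p = 0.0569, edgeR).

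The Tie receptors and Robo4 followed, with 1 library far above the others. Tek (Tie2, the angiopoietin receptor, known in mice from quiescent stem cells; ENSMUSG00000006386, chr4:94739289-94874976, + strand) measured 3.14 and 2.94 TPM in old KO, 4.2 and 5.46 TPM in young KO, 7.22 and 7.42 TPM in old WT, and 17.6 and 6.24 TPM in young WT mice. All KO libraries were below all WT libraries, as for 8.08% of the genes tested. However, young KO replicate 2 and its littermate, young WT replicate 2, were close. The log2 fold change of Tek was -1.20 (SE 0.28, adjusted p = 0.0285, edgeR).

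Robo4 (a roundabout receptor known in mice from stem cell homing and vessel stability; ENSMUSG00000032125, chr9:37401897-37415115, + strand) measured 7.79 and 5.36 TPM in old KO, 13.4 and 17.3 TPM in young KO, 16.1 and 14.8 TPM in old WT, and 34.1 and 18.1 TPM in young WT mice. Old KO mice were lowest, while young KO replicate 2 overlapped the WT mice. Its log2 fold change was -0.84 (SE 0.23, adjusted p = 0.0421, edgeR). Tie1, the partner of Tek (ENSMUSG00000033191, chr4:118471191-118490061, - strand), measured 21.7 and 16.2 TPM in old KO, 32.4 and 38.4 TPM in young KO, 31.7 and 46.6 TPM in old WT, and 79.7 and 37.9 TPM in young WT mice. The genotypes overlapped, and the log2 fold change was -0.72 (SE 0.25, adjusted p = 0.087, edgeR).

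The Tek and Robo4 calls rested on how batch, litter and length were handled. Without young WT replicate 1, Tek stood at -1.02 (adjusted p = 0.0849) and Robo4 at -0.74 (adjusted p = 0.11), and both calls were also lost when any of old KO replicates 1 and 2, young KO replicate 1 and old WT replicates 1 and 2 was left out. With litter as a block the adjusted p was 0.0547 for Tek and 0.0692 for Robo4. Within batch 1 the changes were -0.61 for Tek and -0.37 for Robo4, and within batch 2 they were -1.82 and -1.38 in the same order. Tek, Tie1 and Robo4 have the longest RNAs of the tested members (effective lengths of 3785, 3682 and 3507 bases). After a trend of the libraries with transcript length was removed, the change was -0.88 for Tek (adjusted p = 0.0534), -0.43 for Tie1 (adjusted p = 0.274) and -0.54 for Robo4 (adjusted p = 0.118), while Jam3 stood at -1.95 (adjusted p = 0.0039).

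Cd34 and Eng were not called with genotype. Cd34 (ENSMUSG00000016494, chr1:194938819-194961279, + strand), which in adult mice is higher on multipotent progenitors than on long-term stem cells, measured 475.6 and 617.5 TPM in old KO, 806.9 and 768.1 TPM in young KO, 724.6 and 788.1 TPM in old WT, and 1047 and 920.8 TPM in young WT mice. Each KO mouse was below its littermate, an order not counted over all genes, but the genotypes overlapped (log2 fold change -0.25, SE 0.11, adjusted p = 0.163, edgeR). An antisense gene, Gm16897, overlaps Cd34 and was at 1.86 to 9.56 TPM. Eng (ENSMUSG00000026814, chr2:32646595-32682669, + strand) measured 81.5 and 63.8 TPM in old KO, 81 and 94.7 TPM in young KO, 81.7 and 81.9 TPM in old WT, and 98.6 and 85.6 TPM in young WT mice. The genotypes overlapped here too (log2 fold change -0.31, SE 0.20, adjusted p = 0.321, edgeR). Eng overlaps Fpgs on the opposite strand (35.8 to 71.6 TPM), and the library kit does not mark strand, so reads of such overlaps cannot be told apart.

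**Figure D2:**
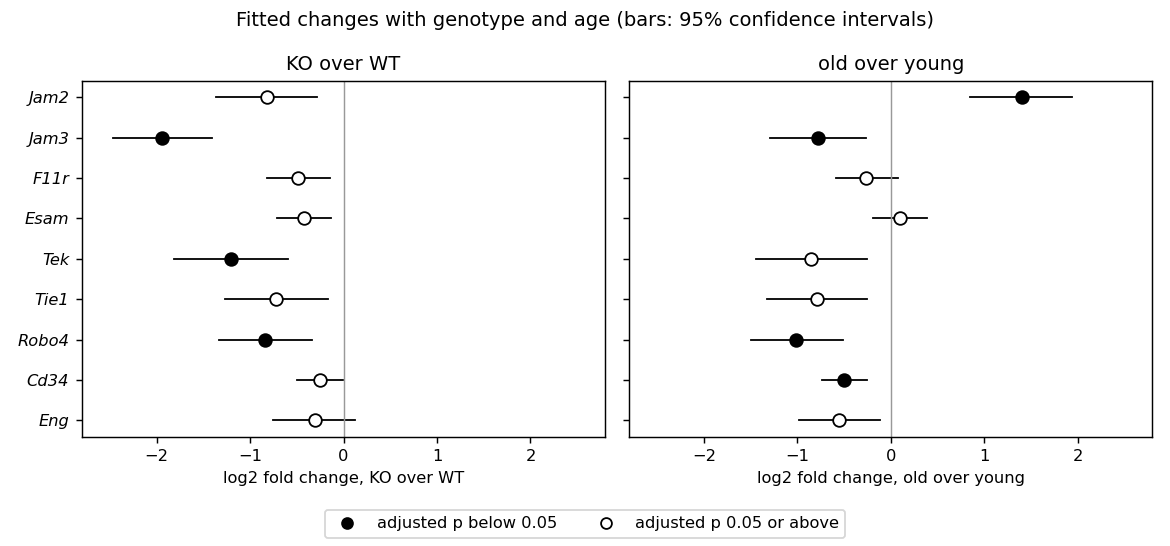
Fitted log2 fold changes (horizontal axis) with 95% confidence intervals for KO over WT (left) and old over young (right), from edgeR over 8 libraries. Filled points have an adjusted p below 0.05. Every point lies left of 0 for genotype, with Jam3 at -1.94, and Jam2 alone lies far right of 0 for age, at 1.40.

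Split by age, the KO change was called for Jam3 alone and in old mice alone. In old KO against old WT mice Jam3 stood at -2.11 (SE 0.36, adjusted p = 0.0326, edgeR), 1 of 9 members where 0.65% of all genes passed and 0.446% passed as lower. With litter as a block that value was -2.06 (adjusted p = 0.105), and without litter 1 it was -2.68 (adjusted p = 0.282). The call was also lost without old KO replicate 2 (-1.84, adjusted p = 0.129) or old WT replicate 2 (-1.70, adjusted p = 0.158). Tek stood at -1.37 (adjusted p = 0.0957) and Robo4 at -1.0 (adjusted p = 0.118), and the other 6 ran from -0.84 to -0.28.

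In young KO against young WT mice none of 9 members passed, where 0.0626% of all genes did. At an unadjusted p under 0.05 there were 3 of 9 members, Jam3 at -1.78 (adjusted p = 0.188), Jam2 at -1.15 (adjusted p = 0.43) and Tek at -1.02 (adjusted p = 0.505), where 9.46% of all genes were under it. DESeq2 called 2 of them, Jam2 and Jam3. The share of all genes it called there is not given, so that count cannot be set against other genes. The difference between the ages was itself tested as an interaction, and no member passed, also with DESeq2 and also at an unadjusted p under 0.05. For Jam3 the old minus young difference in log2 change was -0.33 (95% confidence interval -1.40 to 0.75), and for Jam2 it was 0.66 (95% confidence interval -0.39 to 1.71), so these data allow a difference of more than 1 log2 unit in either gene. Across all genes 0.00391% passed the interaction test and 1.98% were under an unadjusted p of 0.05.

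Old against young mice gave a different picture, in which Jam2 rose and 3 other members fell. Jam2 was higher in every old mouse than in every young mouse, as 4.73% of all genes tested were. Robo4, Cd34 and Jam3 were called lower in old mice. Littermates share an age, so the 4 mice of an age come from 2 litters, while the age test counts them as separate mice. With litter as a block no age effect can be fitted, so the age calls were not checked that way. Of the 9 members 4 passed, beside 13.9% of all genes (4.34% as higher and 9.61% as lower), and the members' median was -0.55 beside 0.15 over all genes.

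Jam2 averaged 9.54 ± 2.12 TPM in old mice and 3.27 ± 1.32 TPM in young mice (SD, n = 4 each). Its log2 fold change was 1.40 (SE 0.25, 95% confidence interval 0.85 to 1.94, adjusted p = 0.0198, edgeR). The call was lost without old KO replicate 1 (1.11, adjusted p = 0.0574), without young KO replicate 2 (1.26, adjusted p = 0.102), without litter 1 (1.16, adjusted p = 0.403) and in limma on log2(TPM + 1) (1.34, adjusted p = 0.0717).

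Cd34 averaged 651.4 ± 136.7 TPM in old mice and 885.6 ± 125.5 TPM in young mice (SD, n = 4 each), a log2 fold change of -0.50 (SE 0.11, adjusted p = 0.0262, edgeR). Robo4 averaged 11 ± 5.24 TPM in old mice and 20.7 ± 9.14 TPM in young mice (SD, n = 4 each), a log2 fold change of -1.01 (SE 0.22, adjusted p = 0.0258, edgeR). Jam3 averaged 6.33 ± 5.05 TPM in old mice and 9.23 ± 6.17 TPM in young mice (SD, n = 4 each), a log2 fold change of -0.78 (SE 0.24, adjusted p = 0.0491, edgeR). In all 3 genes old and young libraries overlapped. Their calls were kept in few of 19 alternatives. Jam3 kept its call in 5, Cd34 in 7 and Robo4 in 9, and for all 3 it was lost without either old KO mouse, without young KO replicate 2, without old WT replicate 1, without young WT replicate 1 and without litter 1. Without young WT replicate 1 the changes were -0.88 for Jam3 (adjusted p = 0.0898), -0.87 for Robo4 (adjusted p = 0.0852) and -0.55 for Cd34 (adjusted p = 0.0696).

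Tie1 (-0.79, adjusted p = 0.0524), Tek (-0.85, adjusted p = 0.0569) and Eng (-0.55, adjusted p = 0.0735) were near the threshold with age. F11r (-0.26, adjusted p = 0.228) and Esam (0.10, adjusted p = 0.581) had the smallest age changes of the 9. Esam averaged 104.3 ± 34.7 TPM in old mice and 94.2 ± 17.8 TPM in young mice (SD, n = 4 each), and its 95% confidence interval was -0.19 to 0.39.

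Jam2 and Jam3, which encode a binding pair, thus ran opposite ways with age and the same way with genotype. The ratio of Jam3 TPM to Jam2 TPM was 0.232 and 0.381 in old KO, 1.52 and 2.27 in young KO, 0.746 and 1.10 in old WT, and 3.44 and 3.22 in young WT mice. The 4 groups did not overlap, with old KO lowest and young WT highest. The ratio was formed after the 2 genes' values were seen and is given with no test. The ratio of Tie1 to Tek, the 2 Tie receptors, ran from 4.39 to 7.71 over the 8 libraries.

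**Figure D3:**
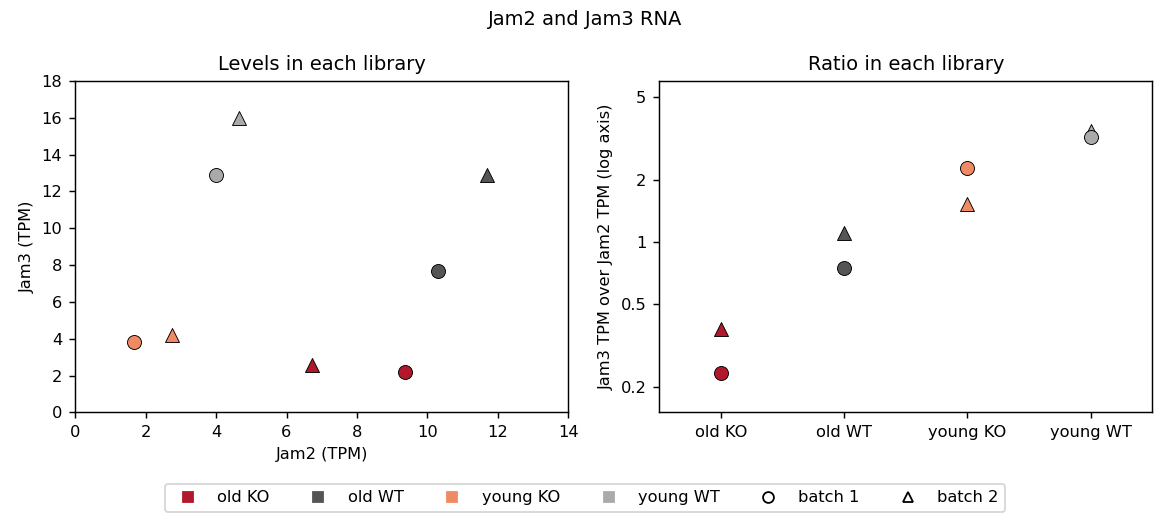
Left, Jam3 level against Jam2 level in TPM in each of the 8 libraries. Right, the ratio of the 2 levels by group, on a log axis, from 0.232 in an old KO mouse to 3.44 in a young WT mouse. Colours are groups, and circles and triangles are batches 1 and 2.

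Across the 8 libraries most members ran alike, given here as a description over libraries that share genotype, age, batch and depth. On log2(TPM + 1) values, Pearson's r over 8 libraries was 0.96 for Tie1 with Robo4, 0.94 for Tek with Tie1 and 0.92 for Tek with Robo4. Among the junction genes it was 0.93 for Jam3 with F11r, 0.88 for F11r with Esam and 0.85 for Jam3 with Esam. Values between these sets were as high in part, at 0.86 for Jam3 with Tek, 0.83 for Jam3 with Tie1 and 0.83 for F11r with Tie1. Esam was less like the receptors, at 0.71 with Tek, 0.60 with Tie1 and 0.56 with Robo4. Thus Jam3 and F11r did not stand apart from Tek, Tie1 and Robo4, while Esam did in part. Eng stood at 0.88 with Robo4, but at 0.52 with Jam3, 0.50 with F11r and 0.23 with Esam. Jam2 resembled no other member, with r from -0.42 (Cd34) to 0.46 (Esam). Of 9764 other genes averaging at least 5 TPM, those most like each member were Cpne8 (r = 0.978) for Jam2, Spry1 (0.994) for Jam3, Dhrs11 (0.995) for F11r, Fam174b (0.986) for Esam, Fchsd1 (0.996) for Tek, Tef (0.987) for Tie1, Tmem127 (0.996) for Robo4, Tspan5 (0.996) for Cd34 and Sugp2 (0.979) for Eng. Spry1 measured 3.20 and 3.34 TPM in old KO, 5.55 and 5.28 TPM in young KO, 10.4 and 15 TPM in old WT, and 15.9 and 15 TPM in young WT mice, so its groups were ordered as those of Jam3 were. Values of at least 0.978 were found for every member among the 9764 candidates.

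Tek and Cd34 each hold the same 6 letters at 2 places in the promoter. The promoters are shown for that reason, as the bases before the annotated start of the RNA (RefSeq, GRCm38.p6, + strand, chr4:94739039-94739288 for Tek and chr1:194938571-194938818 for Cd34). Capitals mark TTCCTG, the reverse complement of CAGGAA, a core form of the motif of ETS factors, which act in both endothelium and blood stem cells.
Tek: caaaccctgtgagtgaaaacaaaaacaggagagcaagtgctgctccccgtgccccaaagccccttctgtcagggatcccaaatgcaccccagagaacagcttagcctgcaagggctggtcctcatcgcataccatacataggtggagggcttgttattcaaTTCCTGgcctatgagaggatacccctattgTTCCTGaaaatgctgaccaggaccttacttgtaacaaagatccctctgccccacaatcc
Cd34: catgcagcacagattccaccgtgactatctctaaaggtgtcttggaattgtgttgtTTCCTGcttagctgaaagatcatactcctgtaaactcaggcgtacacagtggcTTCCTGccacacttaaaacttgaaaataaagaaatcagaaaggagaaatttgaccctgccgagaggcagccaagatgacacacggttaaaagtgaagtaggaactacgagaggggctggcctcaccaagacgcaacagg
The promoter table held 6 of the 10 members. Within 250 bases before the start, CAGGAA occurred on either strand in 4 of the 6 (Tek, Cd34, Tie1 and Robo4) and in 25.7% of 32851 promoters. The windows of Tie1 and Robo4 run into exons of the GENCODE annotation, and their matches lie there. Before the first such exon, where 38 bases of the Tie1 window and 175 of the Robo4 window remain, the letters occurred in 2 of the 6, Tek and Cd34. The 25.7% is of full windows, so it cannot be set beside that count. Jam2, Jam3, Esam and Cdh5 were not in the promoter table. The other ETS form searched, CCGGAA, was in none of the 6 and in 12% of promoters, the GATA form AGATAA was in none and in 9.99%, the RUNX form TGTGGT was in none and in 14%, and the E-box CAGCTG was in Robo4 alone and in 13%. The 2 ETS forms share the core GGAA. A match is a description of the letters, not of a bound site.

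Several members owe part of their TPM to short or noncoding transcripts, which bears on what their levels mean. For Eng, a noncoding transcript of 258 bases held 41.2% to 69.1% of the gene's TPM but 0.807% to 2.84% of its estimated counts, since its effective length was 31.0 to 37.1 bases. Coding transcripts of Eng alone measured 29.9 and 17.7 TPM in old KO, 30.0 and 45.1 TPM in young KO, 33.3 and 37.2 TPM in old WT, and 46.6 and 47.5 TPM in young WT mice. On that measure Eng averaged 30.7 ± 11.2 TPM in KO and 41.2 ± 6.98 TPM in WT mice (SD, n = 4 each), still with overlap. The gene test uses counts, on which the short transcript has little weight.

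For Jam3, the coding transcript held 47.1% to 95% of the TPM, and the rest was a transcript with a retained intron. That transcript's share was 30.9% and 52.9% in old KO, 18.1% and 6.05% in young KO, 17.2% and 12.3% in old WT, and 10.6% and 4.96% in young WT mice. The share was thus highest in both old KO mice, where Jam3 itself was lowest, at 222 and 123 estimated counts. The transcript's own level did not follow that order. It measured 0.67 and 1.35 TPM in old KO, 0.758 and 0.231 TPM in young KO, 1.32 and 1.59 TPM in old WT, and 1.69 and 0.639 TPM in young WT mice. Coding Jam3 measured 1.5 and 1.2 TPM in old KO, 3.43 and 3.59 TPM in young KO, 6.38 and 11.3 TPM in old WT, and 14.3 and 12.2 TPM in young WT mice. With coding transcripts alone the KO change was -2.01 (adjusted p = 0.00127, edgeR).

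Jam2 had 2 coding transcripts, of 1998 and 4370 bases, beside a noncoding one of 659 bases that held 22.3% to 45.7% of its TPM. The longer coding one held 10.3% to 19.8% in KO mice and 22.2% to 46.4% in WT mice, and the shorter one 44% to 61.4% in KO mice and 23.6% to 36.8% in WT mice. These were 2 of 4 transcripts whose shares did not overlap between the genotypes, of 35 transcripts of 9 members, and they were named after their values were seen. No test was made of transcript shares, which kallisto estimates from reads the transcripts partly have in common. Cd34 was nearly all coding, its 2 transcripts of 2454 and 2554 bases holding 54.2% to 61.3% and 37.0% to 44.2% of the TPM in every library. A retained-intron transcript of F11r held 21.6% to 39.0% of its TPM and 4.91% to 10.5% of its counts.

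**Figure D4:**
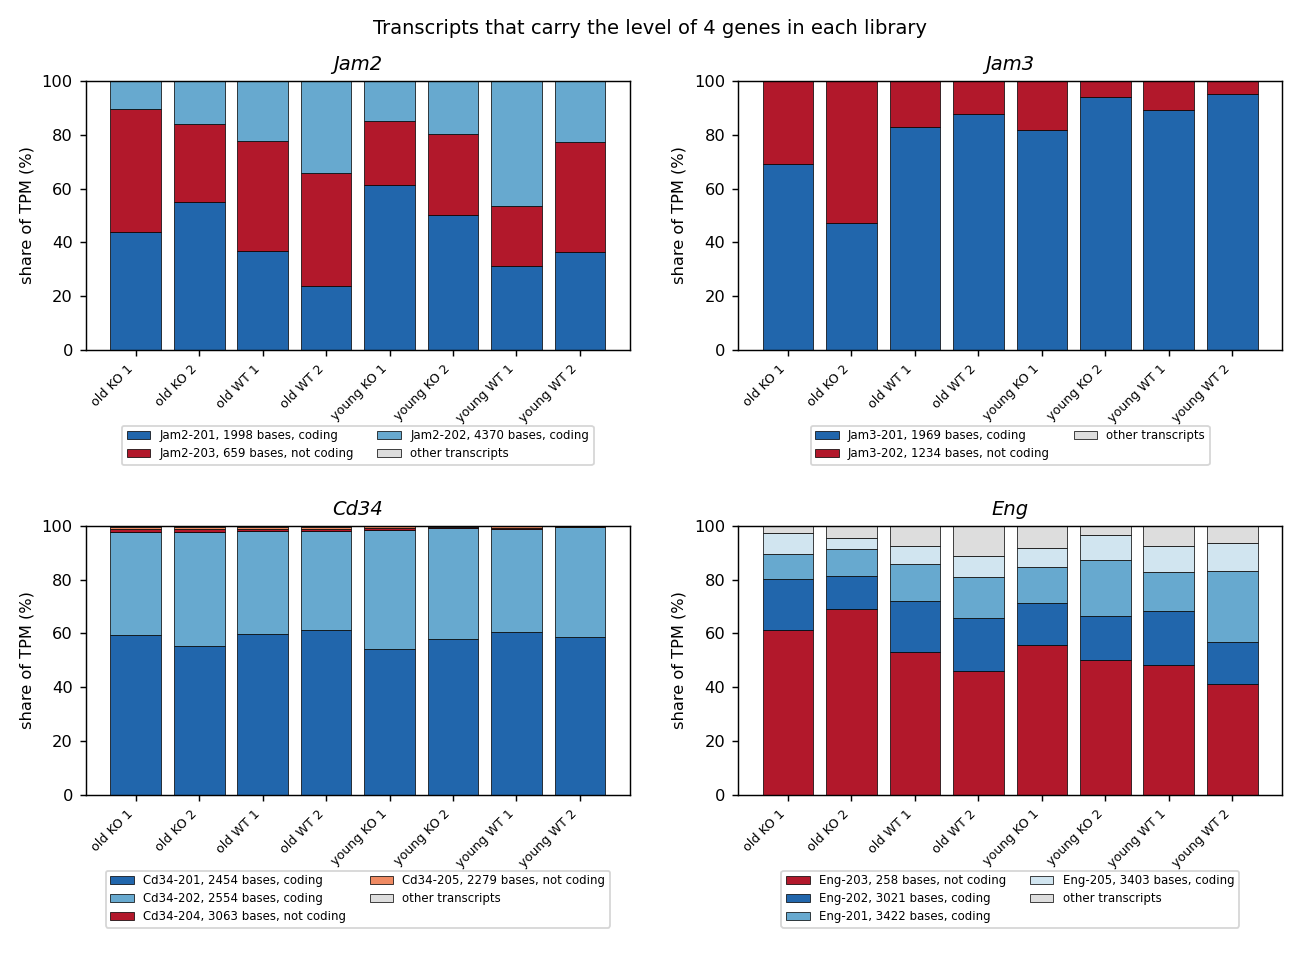
Share of each gene's TPM (vertical axis, percent) held by its leading transcripts in the 8 libraries, for Jam2, Jam3, Cd34 and Eng. Blue is coding, red and orange are not coding, and grey is the rest. The red share of Jam3 is highest in old KO mice (30.9% and 52.9%), and a 258-base noncoding transcript makes up 41.2% to 69.1% of Eng.

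The partners of these genes in the cell were read from 6 lists chosen for their roles, in KO against WT mice. Among the Tie ligands and signalling genes 2 of 15 fell and none rose. The 2 were Foxo1, a transcription factor held in check by Akt (-0.74, adjusted p = 0.0221, edgeR), and Pik3r1, a regulatory subunit of PI3 kinase (-0.49, adjusted p = 0.0446). Angpt1, the ligand of Tek, was abundant in the same cells, at 113.8 ± 43.4 TPM in KO and 191.7 ± 81.5 TPM in WT mice (SD, n = 4 each), and was not called (-0.59, adjusted p = 0.0821). The adaptor Dok2 was the most abundant of the list and not called (-0.22, adjusted p = 0.301).

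Of the junction plaque and polarity genes, 4 of 17 fell and none rose. Among them were the scaffold Tjp3 (-0.63, adjusted p = 0.0423) and the polarity proteins Prkci (-0.76, adjusted p = 0.0305) and Pard6b (-0.66, adjusted p = 0.049), all by edgeR. The small GTPases Rap1a (0.22, adjusted p = 0.311) and Rap1b (-0.14, adjusted p = 0.441), which act downstream of JAM proteins, were the most abundant and were not called.

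Of the cadherin complex genes, 3 of 9 fell and none rose, although Cdh5 itself was hardly present. Ctnna1, alpha-catenin, averaged 36.8 ± 9.98 TPM in KO and 68.2 ± 16.4 TPM in WT mice (SD, n = 4 each; -0.76, adjusted p = 0.0162, edgeR). Jup, plakoglobin, stood at -1.09 (adjusted p = 0.0173) and Vcl, vinculin, at -0.99 (adjusted p = 0.0222). Ctnnb1, beta-catenin, was not called (-0.24, adjusted p = 0.216).

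Among other immunoglobulin junction proteins and integrin partners, 1 of 13 tested genes rose and 2 fell. Icam2, a ligand of leukocyte integrins, was the one that rose (0.47, adjusted p = 0.0436, edgeR). Itgb1, the beta chain of VLA integrins, measured 86.5 ± 26 TPM in KO and 142.1 ± 52.6 TPM in WT mice (SD, n = 4 each; -0.55, adjusted p = 0.0338), and Itgam also fell (-0.68, adjusted p = 0.039).

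In the Slit and Robo list 2 of 11 rose and none fell. Slit2, a secreted ligand of Robo receptors, averaged 2.23 ± 1.73 TPM in KO and 0.925 ± 0.702 TPM in WT mice (SD, n = 4 each; 1.33, adjusted p = 0.0357, edgeR). The other was Robo2, at 1.72 ± 1.59 TPM in KO and 0.666 ± 0.468 TPM in WT mice (SD, n = 4 each; 2.14, adjusted p = 0.0351), which lies under the level asked of named genes and was named after its values were seen. Robo1 was at 0.0606 to 0.175 TPM, so Robo4 was the roundabout receptor with the highest level of these 3. The homing receptor Cxcr4 was not called (0.63, adjusted p = 0.0529).

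Among the Eng partners of the BMP and TGF-beta receptor complex, 4 of 15 tested genes fell and none rose. They were the signal carrier Smad1 (-0.59, adjusted p = 0.0238, edgeR), the receptors Tgfbr2 (-0.75, adjusted p = 0.0299) and Acvr2a (-1.01, adjusted p = 0.033), and the co-receptor Tgfbr3 (-0.87, adjusted p = 0.0374). Acvrl1, the receptor that works with Eng in vessels, was low, at 1.26 ± 0.817 TPM in KO and 1.80 ± 1.20 TPM in WT mice (SD, n = 4 each). The share of all genes that fell was 6.78% and the share that rose 3.19%, and the medians of the 6 lists ran from -0.61 (cadherin complex) to 0.12 (Slit and Robo), beside 0.10 over all genes.

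Markers of the cell types in and near the gate moved with genotype as well, and their part in the members' changes was not tested. Of 9 markers of long-term stem cells, a type in which several of the members are high, 3 fell and 1 rose in KO mice, and the list summed to 345.9 to 676.4 TPM in KO and 663.2 to 1155 TPM in WT libraries. Among them the transcription factor Mecom fell (-0.85, adjusted p = 0.0334, edgeR), while the surface receptor Slamf1 rose (0.84, adjusted p = 0.0393). Mast cell markers fell in 6 of 7 (101.2 to 135.5 TPM in KO and 224.6 to 287.7 TPM in WT libraries) and erythroid markers in 7 of 9 (99.4 to 618.7 TPM in KO and 289.0 to 1295 TPM in WT libraries). Megakaryocyte and platelet markers, a lineage in which F11r and Esam are also found, had 1 of 12 higher and 1 lower, and summed to 303.5 to 449.5 TPM in KO and 506.4 to 783.5 TPM in WT libraries. Marrow stroma markers had 2 of 9 tested lower and none higher, and lineage antigens 2 of 10 lower and none higher. Stroma markers summed to 8.54 to 17.1 TPM in KO and 13.2 to 35.5 TPM in WT libraries, and lineage antigens to 43.3 to 90.5 TPM in KO and 32.9 to 149.9 TPM in WT libraries. Markers of multipotent and lymphoid-primed progenitors had 1 of 9 higher and 1 lower, at 1458 to 1781 TPM in KO and 1626 to 2439 TPM in WT libraries. The gate's own genes differed too, with Ly6a (Sca1) higher in KO (0.90, adjusted p = 0.0321) and Kit lower (-0.88, adjusted p = 0.0438, edgeR). Markers moved with age too, beside the age changes of Jam2, Jam3, Robo4 and Cd34, and their part in those changes was not tested either. In old mice erythroid markers were lower in 5 of 9 (median log2 fold change -1.32), stem cell markers in 3 of 9 and multipotent and lymphoid-primed markers in 3 of 9, with none higher in these 3 lists. Kit was lower in old mice as well (-0.93, adjusted p = 0.0324, edgeR). The megakaryocyte and platelet list had 2 of 12 higher and 1 lower.

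**Figure D5:**
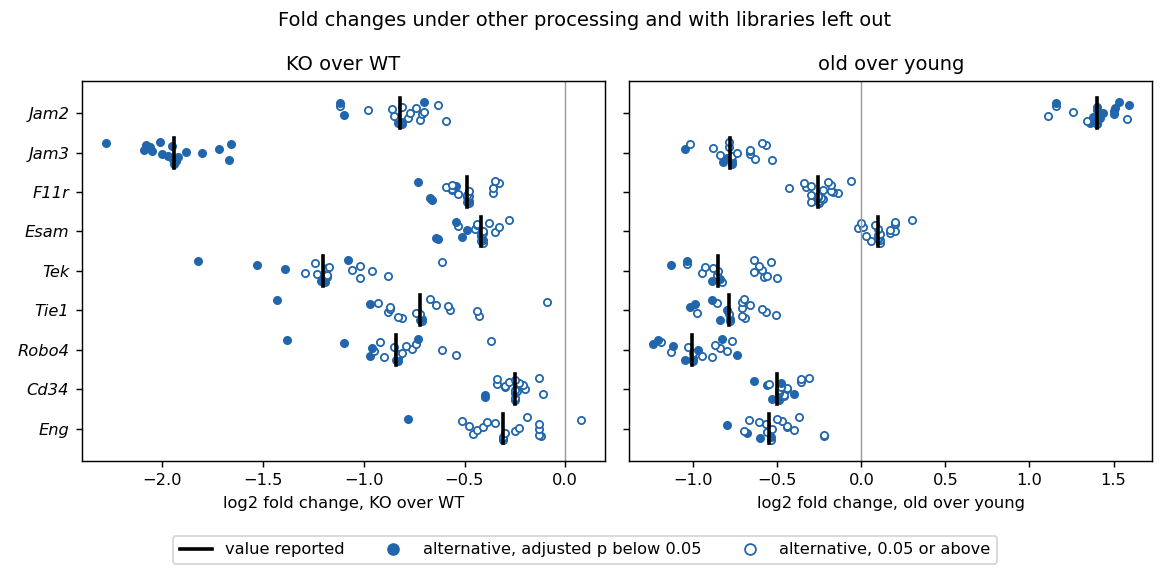
Log2 fold changes of the 9 members (horizontal axis) for KO over WT (left, 20 alternatives) and old over young (right, 19 alternatives) under other processing, other models and with libraries left out. The black bar is the value reported, and filled points have an adjusted p below 0.05. All 20 points of Jam3 on the left are filled, from -2.28 to -1.66, while 8 of 20 are for Tek and for Robo4.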

How the data were processed

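PolyA RNA of LSK cells was made into libraries with the SMART-Seq v4 Ultra Low Input kit, per the labels. The authors' deposited tables hold kallisto's estimated counts, TPM and effective lengths (in bases) for 115088 transcripts, per the file headers. The submitters' processing notes name kallisto, DESeq2 and mm10, and versions are not given in the sources used here. The 4 groups and the litters came from the labels, and replicate numbers followed the order of the samples.

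Here, 114200 transcripts were matched to 47311 genes of GENCODE vM21 (94.2% with the same length). The 888 unmatched ones, 0.259% to 0.47% of a library's counts, were left out. Estimated counts were summed per gene, rounded, filtered with filterByExpr (minimum count 10, total 15), scaled by TMM and tested with edgeR 4.0.16 in R 4.3.3. An additive model (genotype, age, batch) with 4 residual degrees of freedom gave genotype and age effects. A model of the 4 groups plus batch, with 3, gave effects within an age and the interaction. The p-values, adjusted by Benjamini-Hochberg over 25543 genes, measure the spread between 2 mice per group, which differ in batch and litter. The fit was tested on simulated data.

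Alternatives were DESeq2 1.42.0, limma 3.58.1 on log2(TPM + 1) and log2(TPM + 0.1), other scaling, no filter, removal of a trend with transcript length in each library, coding transcripts only, litter as a block, no batch term, each batch alone, and each library or litter 1 left out. Littermates are paired by the labels. The correlation over genes of littermates' deviations from their groups' means was 0.08 for old and 0.26 for young litters, and with 2 mice a group both litters of an age share that value. Sums and figures were made in Python 3.11.15 with pandas 2.3.3 and matplotlib 3.10.9.

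The members and lists were chosen with earlier results of these data known. From each list, genes past the threshold in KO against WT with at least 2 TPM in the higher genotype were named, at most 4 by p, with the 2 most abundant; some genes and 1 list are not reported here. The limit for a count of 0 is 3 counts and covers counting error only.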

Additional observations from a re-analysis of the deposited data

Results flagged for a closer look

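In 40 sets of 4 libraries (a genotype or an age, for each member), the highest or lowest library was compared with the nearest other, and 5 sets had a library that stood apart. Chance gives about 1 in 20. Of the 5, 4 were young WT replicate 1. Tek was 17.6 TPM there, against 6.24 to 7.42 TPM in the other WT libraries, and the same value stood apart among the young libraries. Tie1 was 79.7 TPM there, against 32.4 to 38.4 TPM in the other young libraries. Robo4 was 34.1 TPM there, against 14.8 to 18.1 TPM in the other WT libraries. The last was Eng at 63.8 TPM in old KO replicate 2, against 81.5 to 81.9 TPM in the other old libraries. Coding transcripts of Eng were also lowest in that library, at 17.7 TPM.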

How the results depend on the processing

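Of 837 member values under alternatives, 819 kept their direction and 18 reversed, 14 of them in the interaction, and no reversed value had been called. Jam3 in KO against WT mice passed the threshold in all 20 alternatives. Members called in KO against WT mice (3 of 9) numbered 6 with no filter, 7 with DESeq2, 6 with limma on log2(TPM + 0.1), 8 within batch 2, and 1 each with litter as a block (the pairing of littermates), with no batch term, without litter 1 and within batch 1, where the block is built from fewer degrees of freedom and the subsets from fewer mice. All genes called with that block numbered 1162, against 2548 without it, and over all 20 alternatives that number ran from 138 (without old WT replicate 2) to 6833 (within batch 2). Members called in old against young mice (4) numbered 7 with no filter, 7 with DESeq2, 0 in both limma fits, 1 with no batch term, 0 without litter 1, 2 within batch 1 and 2 with coding transcripts only. In old KO against old WT mice (1) they numbered 5 with no filter, 5 with DESeq2, 3 in both limma fits, and 0 with the litter block, with no batch term and without litter 1. In young KO against young WT mice (0) they numbered 1 with no filter and 2 with DESeq2. Leaving out 1 library gave 1 to 5, 0 to 6, 0 to 6 and 0 to 3 in these comparisons in turn, and the interaction stayed at 0. The litter block ended the calls of Tek and Robo4 in KO against WT mice and of Jam3 in old mice. It changed no other member's call in the comparisons it could fit, which leave out age. The cause of the other moves was not tested. Most of these counts stand without the number of all genes called in the same fit. They show how calls moved with the method, not how members compare with other genes.

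Reversed values were Cd34 in the interaction with the length trend removed (0.04), Eng in KO against WT within batch 1 (0.08) and Esam with age within batch 1 (-0.00). With 1 library left out, the interaction ran from -1.01 to 0.22 for Tie1, -1.15 to 0.14 for Robo4, -0.78 to 0.19 for Eng, -1.40 to 0.29 for Tek, -0.32 to 0.08 for Cd34 and -0.93 to 0.04 for Jam3. Eng in young mice ran from -0.45 to 0.06, and Esam with age from -0.02 to 0.20. With 2 mice per group, differences between mice cannot be told apart from differences between their libraries. Cdh5 had too few counts to be tested.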
